A study of Homo sapiens with 3 samples.

Results

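The ERRγ peaks of human chromosomes 17 and 20 in BT-474 cells were taken as all peaks that the deposited table places on either chromosome, 710 of 15223 in all. Chromosome 17 held 434 of them and chromosome 20 held 276. BT-474 is an established breast cancer line of the luminal type, and both chromosomes carry amplified segments in it, in 17q12, 17q23 and 20q13. Chromatin immunoprecipitation with sequencing (ChIP-seq) was done on nuclei taken 90 min into vehicle treatment in fresh medium, giving 2 libraries from a custom ERRγ antibody and 1 input DNA library. All 3 libraries came from the same line under the same basal condition. The deposited data are 1 merged list with no value per library, so there is no spread between replicates, the read depth is unknown here, and no difference below was tested. Intervals are exact 95% intervals that cover counting error only, and neighbouring peaks are not independent of each other. Copy number was not measured in the files used here, and its part in any value below was not tested.

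ERRγ (gene ESRRG) is an orphan nuclear receptor, which means that no natural hormone is known for it. It binds DNA at an extended site written TNAAGGTCA, whose core AGGTCA is shared with many nuclear receptors, and it is known for switching on genes of mitochondrial energy metabolism. The 17q12 amplicon holds ERBB2, which encodes the receptor tyrosine kinase HER2 and drives the growth of this line. The 17q23 amplicon holds kinase, phosphatase and T-box genes, and 20q13 holds ZNF217, AURKA and the coactivator gene NCOA3, all studied as amplified genes of breast tumours. Peaks carry the name of the gene whose transcription start site (TSS) is nearest, with a minus sign for peaks upstream, and positions are on hg19. The score is the authors' value per peak, has no stated unit and is used only within this list, where its median was 106. As 158 peaks of the list, 10 of them on chromosomes 17 and 20, tied at 3100, those peaks have no order among themselves.

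A peak lay over the TSS of 48 genes of the 2 chromosomes, and 35 of these were protein-coding genes with a RefSeq promoter window (GRCh38.p14, 250 bases before to 50 after the start). The windows below were picked after the search, to show 5 of the 7 that hold AGGTCA and 1 without it: CLUH and IDH3B are mitochondrial genes outside the amplified bands, and CCL15, MYO19, ARFRP1 and TACO1 lie in 17q12, 17q23 or 20q13. Capitals mark the letters AGGTCA, or TGACCT where the match is on the other strand, and TACO1 has none.
CLUH, chr17:2711971-2712270, minus strand: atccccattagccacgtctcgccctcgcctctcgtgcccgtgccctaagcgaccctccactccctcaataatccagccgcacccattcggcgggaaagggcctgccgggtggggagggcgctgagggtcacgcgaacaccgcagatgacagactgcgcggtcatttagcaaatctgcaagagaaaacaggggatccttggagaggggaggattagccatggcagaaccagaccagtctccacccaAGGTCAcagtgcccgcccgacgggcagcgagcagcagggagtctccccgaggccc
IDH3B, chr20:2664167-2664466, minus strand: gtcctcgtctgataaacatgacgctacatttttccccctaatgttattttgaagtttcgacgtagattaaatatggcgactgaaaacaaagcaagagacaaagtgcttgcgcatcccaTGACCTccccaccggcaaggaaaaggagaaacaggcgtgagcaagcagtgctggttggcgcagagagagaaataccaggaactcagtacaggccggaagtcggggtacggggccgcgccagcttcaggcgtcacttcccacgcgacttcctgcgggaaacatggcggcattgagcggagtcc
CCL15, chr17:36001504-36001803, minus strand: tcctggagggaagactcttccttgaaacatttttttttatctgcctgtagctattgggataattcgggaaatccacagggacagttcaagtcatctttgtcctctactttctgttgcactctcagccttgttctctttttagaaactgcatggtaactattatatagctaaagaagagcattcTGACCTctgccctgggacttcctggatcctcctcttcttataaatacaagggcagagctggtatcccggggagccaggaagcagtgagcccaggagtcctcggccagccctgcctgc
MYO19, chr17:36534819-36535118, minus strand: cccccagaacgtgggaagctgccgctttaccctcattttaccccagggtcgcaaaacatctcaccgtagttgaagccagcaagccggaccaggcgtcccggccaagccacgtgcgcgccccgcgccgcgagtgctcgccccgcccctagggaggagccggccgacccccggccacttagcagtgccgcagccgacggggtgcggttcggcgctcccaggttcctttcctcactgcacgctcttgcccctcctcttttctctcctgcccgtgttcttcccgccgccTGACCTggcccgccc
ARFRP1, chr20:63707804-63708103, minus strand: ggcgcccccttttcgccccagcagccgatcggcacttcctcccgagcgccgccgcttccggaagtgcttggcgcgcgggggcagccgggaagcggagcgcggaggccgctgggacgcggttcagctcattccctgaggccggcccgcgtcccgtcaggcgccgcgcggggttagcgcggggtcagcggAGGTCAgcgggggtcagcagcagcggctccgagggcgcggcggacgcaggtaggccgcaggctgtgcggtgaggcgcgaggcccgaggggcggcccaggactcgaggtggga
TACO1, chr17:63600645-63600944, plus strand: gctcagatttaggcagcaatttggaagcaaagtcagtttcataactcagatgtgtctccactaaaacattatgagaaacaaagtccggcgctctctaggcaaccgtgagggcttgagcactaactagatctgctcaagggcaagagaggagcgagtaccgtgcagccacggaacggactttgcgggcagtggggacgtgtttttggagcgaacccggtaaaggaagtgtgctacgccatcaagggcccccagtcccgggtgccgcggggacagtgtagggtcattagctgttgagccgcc

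The core site AGGTCA, searched on both strands, was found in 7 of the 35 windows (20%, 8.44 to 36.9). For genes with a TSS peak on the other chromosomes it was found in 117 of 517 windows (22.6%, 19.1 to 26.5). Among all 15843 protein-coding windows 1854 held it (11.7%). Windows were joined to peaks by gene and lie on another build. Whether each window lies under its peak was not checked, so these are shares of genes with a TSS peak, not of bound sequence. The full site TNAAGGTCA, which contains the core, was found in 0 of the 35 windows, against 12 of 517 on the other chromosomes (2.32%) and 101 of 15843 overall (0.638%). The exact interval around 0 of 35 reaches 10%, which includes both of those shares. A match describes letters in this window and is not a measured binding site. CLUH, which encodes a protein that binds mRNAs of mitochondrial proteins, had its AGGTCA site 5 bases before the RefSeq start and a peak of score 1040 at -262 bp. The TSS peaks of the other printed genes scored 151 at IDH3B (a subunit of mitochondrial isocitrate dehydrogenase), 188 at CCL15 (a chemokine), 64.2 at MYO19 (a mitochondrial myosin), 107 at ARFRP1 (a small GTPase of the Golgi) and 447 at TACO1.

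Over all peaks, density was lower in 20q13 than in the rest of its chromosome and close to the chromosome's own level in 17q23. It was also lower in 17q12, by an amount that depended on the borders taken. For 20q13 the difference depended on which peaks and bins were counted. Peak centres were put in 1 Mb bins, and the bands were taken to the nearest whole Mb, from 32 to 38 Mb for 17q12, from 58 to 63 Mb for 17q23 and from 42 Mb to the end for 20q13. The 17q12 bins held 14 peaks (2.33 per Mb, 1.28 to 3.91), against 392 in the rest of chromosome 17 outside both bands (5.52 per Mb, 4.99 to 6.1), a ratio of 0.423 (0.229 to 0.718). The 20q13 bins held 65 peaks (3.1 per Mb, 2.39 to 3.95), against 211 in the rest of chromosome 20 (5.02 per Mb, 4.37 to 5.75), a ratio of 0.616 (0.459 to 0.817). This ratio was 0.574 (0.428 to 0.761) with the band 1 Mb wider and 0.643 (0.475 to 0.86) with it narrower. With the upper 50% of the peaks by score it was 0.796 (0.54 to 1.15), and with the upper 10% 0.87 (0.369 to 1.9). Over bins with a peak it was 0.829 (0.618 to 1.1), so with each of these last changes the interval included 1. The 17q23 bins held 28 peaks (5.6 per Mb, 3.72 to 8.09), a ratio of 1.01 (0.665 to 1.49). With the 17q23 band 1 Mb wider it was 0.884 (0.603 to 1.26) and with it narrower 1.38 (0.854 to 2.12), so its side of 1 depended on the borders, and each interval included 1. The 17q12 ratio depended on the borders and was 0.728 (0.491 to 1.05) with both moved 1 Mb outward, where the next bin held 15 peaks. With both moved 1 Mb inward it was 0.611 (0.322 to 1.06), so with either change the interval included 1. With the upper 50% of the peaks the 17q12 ratio was 0.493 (0.222 to 0.954), and with peaks within 500 bp merged 0.439 (0.238 to 0.747). Over bins with a peak it was 0.58 (0.314 to 0.986), so these 3 intervals stayed below 1. With the upper 10% of the peaks it was 0.201 (0.00499 to 1.16), an interval that includes 1. Chromosome 17 as a whole had 5.29 peaks per Mb and chromosome 20 had 4.38, against 4.92 on the other chromosomes, and they ranked 8 and 15 of 24 by density.

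**Figure D1:**
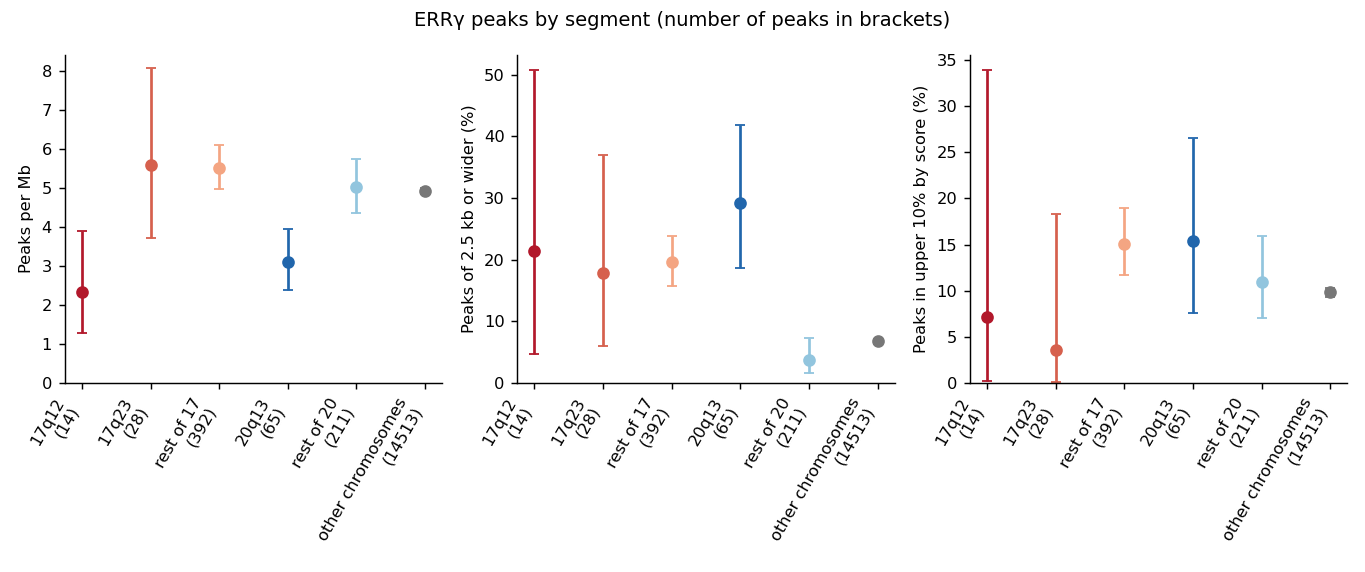
Peaks per Mb (left), percent of peaks of 2.5 kb or wider (middle) and percent of peaks in the upper 10% of the whole list by score (right) for the bands, the rest of each chromosome and all other chromosomes. Points are values, bars exact 95% intervals for counting error, and numbers in brackets count peaks; density was 2.33 per Mb in 17q12 and 3.1 in 20q13, and the share of wide peaks was 29.2% in 20q13 against 3.79% in the rest of chromosome 20.

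Empty bins were few on chromosome 17 and more frequent in 20q13. Of all 1 Mb bins of the list, 17.4% had no peak. Chromosome 17 had 8 empty bins of 82 (9.76%), of which 2 were in 17q12, and chromosome 20 had 15 of 63 (23.8%), of which 8 of 21 were in 20q13 (38.1%). The chromosome 20 share depended on where bins began and was 14.3% with bins shifted by 0.5 Mb. Bins and gaps that span a centromere hold little sequence to which reads can be assigned, and the gaps of 3.71 Mb between LINC02693 and WSB1 on chromosome 17 and of 3.21 Mb between MIR663A and FRG1BP on chromosome 20 are of this kind. Over all pairs the median distance between neighbouring peak centres was 70 kb on chromosome 17 and 81.1 kb on chromosome 20, against 75.3 kb on the other chromosomes. Distances of 1 Mb or more numbered 10 of 433 on chromosome 17 and 9 of 275 on chromosome 20, against 415 of 15199 in the whole list. By length the gap of 3.71 Mb ranked 28 in the whole list, so gaps of this size were not particular to these chromosomes.

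ERBB2 and its neighbours lay in the longest gap of chromosome 17 away from the centromere. No peak centre fell in the 2.98 Mb between a peak of score 176 upstream of LHX1, a homeobox gene (chromosome 17, 35275266 to 35277989), and a peak of score 116 at the promoter of NR1D1 (38256897 to 38258096). In RefSeq order 58 protein-coding genes lie between LHX1 and NR1D1. They include ERBB2, the adaptor gene GRB7, the lipid transfer gene STARD3, the transcription kinase gene CDK12, MED1 and MED24 of the Mediator complex, the thyroid hormone receptor gene THRA, and ACACA, which encodes acetyl-CoA carboxylase. Of a list of 31 genes of the 17q12 amplicon, 0 had a peak named for them at any distance, against 29.6% of all protein-coding genes, and 0 had one within 10 kb, against 11.5%. The exact interval around 0 of 31 reaches 11.2%. This list lies wholly inside the gap, so its genes are not separate observations. The AGGTCA site was present in 9 of 42 promoter windows of the genes in this gap (21.4%, 10.3 to 36.8). The share over all protein-coding windows, 11.7%, lies inside this interval. Genes of the gap include several copies of TBC1D3, so the windows may not be independent.

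Peaks resumed at once on the NR1D1 side of that gap. The bin from 38 to 39 Mb held 15 peaks with a median score of 240, against 119 in the rest of chromosome 17 outside both bands. NR1D1, which encodes the circadian repressor REV-ERBα, had peaks of 116 and 245 at -523 and -2530 bp. MSL1, of a histone acetyltransferase complex, had a peak of 769 at -10.5 kb. RARA, the retinoic acid receptor gene, had 3 peaks within 10 kb, with scores of 252 at -1594 bp, 169 in intron 1 of 8 and 880 in intron 1 of 6 of another transcript (38477974 to 38479371). Between them and the chemokine receptor gene CCR7, whose 3 peaks scored 1159, 948 and 240, lay 1 peak at IGFBP4, an estrogen-responsive growth factor binding protein, with 121. TOP2A, the topoisomerase gene often amplified beside ERBB2, had no peak.

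**Figure D2:**
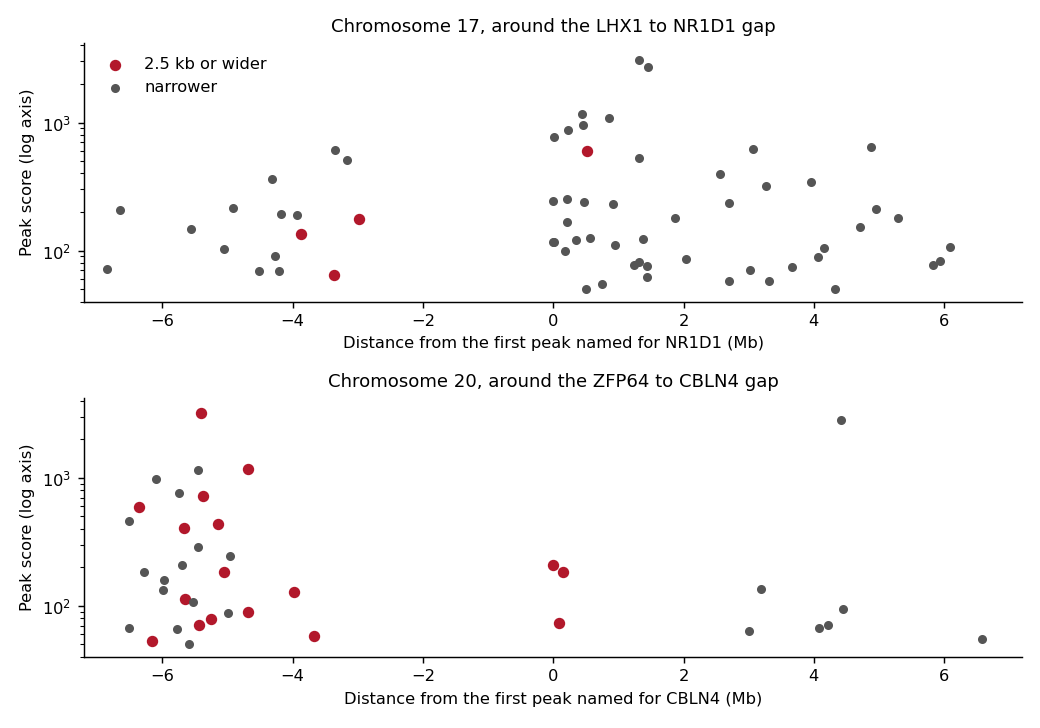
Score of each peak (log axis) against its distance in Mb from the first peak named for NR1D1 on chromosome 17 (top) and for CBLN4 on chromosome 20 (bottom), up to 7 Mb to each side; red points are peaks of 2.5 kb or wider. No point lies in the 2.98 Mb before NR1D1 and the 3.67 Mb before CBLN4, and all 5 peaks from 50 to 55 Mb of chromosome 20 are wide.

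The gap at 20q13 that holds ZNF217 was longer still. No peak centre lay in the 3.67 Mb between a peak of score 57.6 in an intron of ZFP64 (chromosome 20, 50760786 to 50769099) and a peak of score 210 beyond the 3' side of CBLN4, a cerebellin gene (54426207 to 54434618). The 6 protein-coding genes between them in RefSeq order are TSHZ2, the zinc finger oncogene ZNF217, BCAS1, the vitamin D hydroxylase gene CYP24A1, PFDN4 and DOK5. Beyond 3 peaks at CBLN4 a further gap of 2.86 Mb reached GNAS, with 25 protein-coding genes that include the mitotic kinase gene AURKA, the transcription factor gene TFAP2C, BMP7 and PCK1, a gluconeogenic enzyme gene. A gap of 1.57 Mb between MIR3616 and PREX1 held ZMYND8, NCOA3 and SULF2, and one of 2.88 Mb between TOP1 and TOX2 held MYBL2. Of a list of 40 genes of the 20q13 amplicon 3 had a peak within 10 kb (7.5%, 1.57 to 20.4), against 11.5% of all protein-coding genes, and 12 had a peak at any distance (30%), against 29.6%. At any distance the list was thus near the background.

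The 20q13 list members with a peak within 10 kb were B4GALT5, UBE2V1 and GNAS. B4GALT5, a galactosyltransferase of glycolipid synthesis, had 974 at 2025 bp, the ubiquitin-conjugating gene UBE2V1 had 207 at -5573 bp, and GNAS, the stimulatory G protein alpha subunit, had 63.1 at 2134 bp. The peak upstream of PTPN1, a tyrosine phosphatase gene, scored 3196, the highest of both chromosomes (49028603 to 49033302, -95.9 kb). A second peak named for PTPN1 scored 722 at -74.6 kb. SDC4, which encodes the cell surface proteoglycan syndecan-4, had peaks of 3100 in intron 1 of 4 and intron 4 of 4, the first of them 6.95 kb wide. An intergenic peak 217 kb from LINC02910 scored 2825 (58846483 to 58848596). Over the 20q13 bins 10 of 65 peaks were in the upper 10% of the list by score (15.4%, 7.63 to 26.5), against 10% by construction, and 23 of 211 in the rest of chromosome 20 (10.9%).

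In 20q13 the next peaks by score within 10 kb of a TSS were at genes of varied function, the lowest of them close to the list median of 106. SLC13A3, a dicarboxylate transporter, had 360 at 5155 bp, and WFDC2, which encodes the secreted marker HE4, 216 in its second intron. CBLN4 had 184, the zinc finger gene ZNF335 171 at 111 bp, the readthrough RNA SLMO2-ATP5E 135 at 384 bp, and DIDO1 115 at 3893 bp. The ARFRP1 peak of 107 lay at a promoter that the table annotates for ZGPAT, the gene on its other side. ATP5F1E, a subunit gene of ATP synthase, had no peak named for it.

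In 17q12 the 14 peaks lay from 32 to 36 Mb, on the other side of the gap. Their median score was 162 (69.8 to 363), against 119 (107 to 138) in the rest of chromosome 17, and the intervals overlap. GGNBP2, which encodes gametogenetin-binding protein, had the strongest promoter peak, with 615 at -640 bp (34899160 to 34901035). Beside it MYO19, whose peak the table annotates to the promoter of PIGW, had 64.2. GAS2L2 had 194 at 2031 bp in an intron, and the chemokine genes CCL15 and CCL1 had 188 at 667 bp and 148 at -2139 bp. AP2B1, a clathrin adaptor gene, held 3 intronic peaks with scores from 69.8 to 363. GGNBP2, MYO19, GAS2L2, CCL15 and CCL1 were the only genes with a peak named for them within 10 kb in 17q12. Of the 14 peaks 1 was in the upper 10% by score (7.14%, 0.181 to 33.9).

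In 17q23 peaks were dense between TBX2 and BRIP1 and missing from the segment that holds RPS6KB1 and PPM1D. Just before and within the band, 1.38 Mb between TEX14 and TBC1D3P1-DHX40P1 had no peak and contained 16 protein-coding genes. These include CLTC (clathrin heavy chain), VMP1, the S6 kinase gene RPS6KB1, RAD51C and TRIM37. A further 1.26 Mb up to TBX2 held USP32, APPBP2, the phosphatase gene PPM1D and BCAS3 by gene order, although both peaks named for TBX2 lay in intron 22 of 23 of BCAS3. The peak between the 2 gaps, named for the pseudogene TBC1D3P1-DHX40P1, scored 1304 over a width of 399 bp (58108406 to 58108805). It was 1 of 4 peaks under 600 bp in the whole list and the only one of chromosomes 17 and 20.

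From 59 to 60 Mb, 14 peaks scored between 52.3 and 376 with a median of 69.7. The helicase gene BRIP1, which acts in DNA repair, held 7 of them in its introns, with widths around a median of 3110 bp, although 2 of these are named for NACA2. No peak within 10 kb belonged to TBX2, TBX4, BRIP1 or MED13. Of a list of 32 genes of the 17q23 amplicon 1 had a peak within 10 kb (3.12%, 0.0791 to 16.2), against 11.5% of all protein-coding genes, and 8 had one at any distance (25%), against 29.6%. The 1 gene was TACO1, a translational activator of mitochondrial cytochrome c oxidase, with 447 at -16 bp (61677657 to 61678773). Other peaks within 10 kb in the band were at SNORD104 (372), SNORA50C (271), MIR548W (252), the endothelial adhesion gene PECAM1 (129) and CCDC47 (66.8). The median score of the 28 peaks of 17q23 was 116 (68.8 to 156).

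Wide peaks were frequent on chromosome 17, and on both chromosomes most of them lay in a few stretches. Of the 710 peaks 112 were 2.5 kb or wider (15.8%, 13.2 to 18.7), against 982 of 14513 on the other chromosomes (6.77%, 6.36 to 7.19) and 7.19% of the whole list. Chromosome 17 had 19.6% (16 to 23.6), the highest share of the 24 chromosomes. Next came chromosomes 4 (15%), 11 (13.8%), 14 (13.3%) and 1 (12.9%). Chromosome 20 had 9.78% (6.55 to 13.9), an interval that holds the share elsewhere, and ranked 8 of 24, below chromosomes 1, 4, 8, 9, 11, 14 and 17. Chromosome 17 had 85 wide peaks, of which 59 lay from 48 to 52 Mb or from 67 to 68 Mb, and chromosome 20 had 27, of which 17 lay from 48 to 55 Mb. These stretches were picked after the widths were seen. Outside them 26 of 349 peaks of chromosome 17 were wide (7.45%, 4.92 to 10.7) and 10 of 246 of chromosome 20 (4.07%, 1.97 to 7.35).

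The stretch of chromosome 17 from 48 to 52 Mb had the widest peak of the whole list. Its 57 peaks had a median width of 3.73 kb and together covered 260 kb. CA10, which encodes a carbonic anhydrase-related protein of the brain, was the nearest gene of 28 peaks, with scores from 50.8 to 471 and a median of 94.3. The widest of them covered 14414 bp in intron 3 of 9 (50019670 to 50034084) and scored 275. KIF2B, a kinesin gene, was nearest to 13 peaks with widths up to 12533 bp and scores from 52.7 to 165. Of 1319 bins of the list with 5 or more peaks, the bin from 51 to 52 Mb had the highest median width, 7075 bp. Of its 12 peaks all were named for KIF2B, none was within 1 kb of a TSS, and the median score was 78.9. At the edge of the stretch near TOB1, an antiproliferative gene, 7 peaks scored from 138 to 2812.

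The densest bin of both chromosomes, from 67 to 68 Mb on chromosome 17, held 28 peaks, most of them over a cluster of ABC lipid transporter genes. ABCA6 and ABCA10 were the nearest genes of 8 peaks each, the kinase gene MAP2K6 of 4 and the potassium channel gene KCNJ16 of 2. Scores in the bin ran from 52.7 to 519 with a median of 81.4, and widths from 1.24 to 7.54 kb with a median of 3.20 kb. ABCA10 had 10 peaks inside its transcript and ABCA5 had 5. The peaks of the bin had a median GC fraction of 0.336, against 0.459 over all of chromosome 17, and none lay within 1 kb of a TSS. The bins that followed in peak number were 50 to 51 Mb of chromosome 17 with 24 peaks, all named for CA10, 55 to 56 Mb of chromosome 17 with 18, 19 to 20 Mb of chromosome 20 with 18, and 48 to 49 Mb of chromosome 20 with 16.

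These next bins were unlike each other. From 55 to 56 Mb the median score was 195 and the median width 1558 bp, with 6 peaks at MSI2, an RNA-binding stem cell gene, up to 1313, and 4 named for MRPS23, a mitochondrial ribosomal gene, up to 2396. From 19 to 20 Mb of chromosome 20 the median score was 110, with 10 peaks named for SLC24A3-AS1 and 6 for RIN2. From 48 to 49 Mb of chromosome 20 the median score was 172 and the median width 2088 bp, and the genes included B4GALT5, SLC9A8, UBE2V1 and LINC01270. The bin from 48 to 49 Mb lies between the gaps over NCOA3 and ZNF217.

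**Figure D3:**
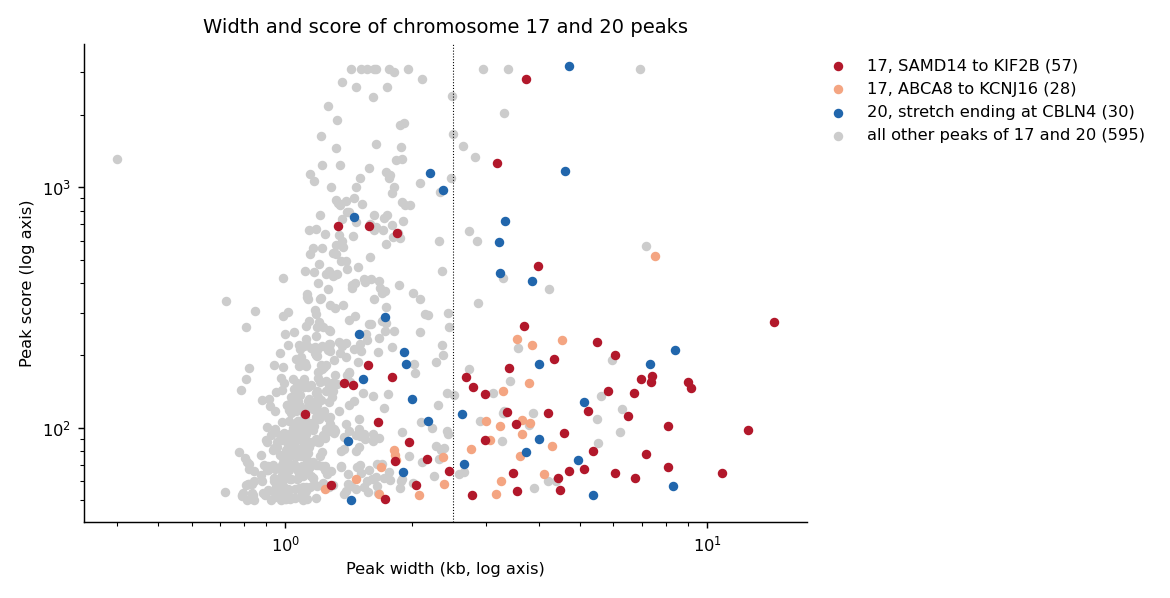
Width (kb, log axis) against score (log axis) of the 710 peaks; colours mark the stretch of chromosome 17 from SAMD14 to KIF2B (57 peaks), the bin of the ABC transporters of chromosome 17 (28 peaks) and the stretch of chromosome 20 that ends at CBLN4 (30 peaks), and the dotted line marks 2.5 kb. The coloured peaks reach 14.4 kb and most score below 300, while most grey peaks lie left of the line.

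Chromosome 20 from 48 to 55 Mb combined wide peaks with both high and low scores. From 48 to 50 Mb 12 of 25 peaks were wide and 6 were in the upper 10% by score. From 50 to 55 Mb there were 5 peaks, near SALL4, ZFP64 and CBLN4, all between 4.94 and 8.41 kb wide with scores from 57.6 to 210. On the other chromosomes the median score was 146 for the 982 wide peaks and 104 for the narrower ones. On chromosomes 17 and 20 the medians were 119 for the 112 wide and 115 for the 598 narrower peaks. The 80 peaks of the 5 bins of chromosomes 17 and 20 with a median width of 2.5 kb or more had a median score of 92.3, a median GC fraction of 0.353 and 1 peak within 1 kb of a TSS (1.25%). In all other bins of the 2 chromosomes the median score was 121, the median GC fraction 0.467, and 67 of 630 peaks lay within 1 kb of a TSS (10.6%).

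Some of the wide peaks bordered long gaps. Of the 37 peaks beside gaps of 1 Mb or more on chromosomes 17 and 20, 8 were 2.5 kb or wider (21.6%), against 16 of 742 beside such gaps on the other chromosomes (2.16%). Among all 710 peaks of the chromosomes the share was 15.8%, so 8 of 37 was near their own level. The 8 were 1 each at ZFP64, LHX1, MMD, SAMD14, PREX1 and RBM39 and 2 at CBLN4, and their widths ran from 2.72 to 8.41 kb. Most bordered one of the gaps described above, over ZNF217, AURKA, ERBB2 or NCOA3. SAMD14 stands at the end of a 2.15 Mb gap that begins after a peak of score 2595 near CDK5RAP3. In RefSeq order this gap contains 41 protein-coding genes, among them the HOXB cluster from HOXB1 to HOXB13, NFE2L1, ATP5MC1 of ATP synthase, SPOP, and the pyruvate dehydrogenase kinase gene PDK2. These genes were taken as those between 2 neighbouring peaks, so a lack of peaks named for them nearly follows from that choice.

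**Figure D4:**
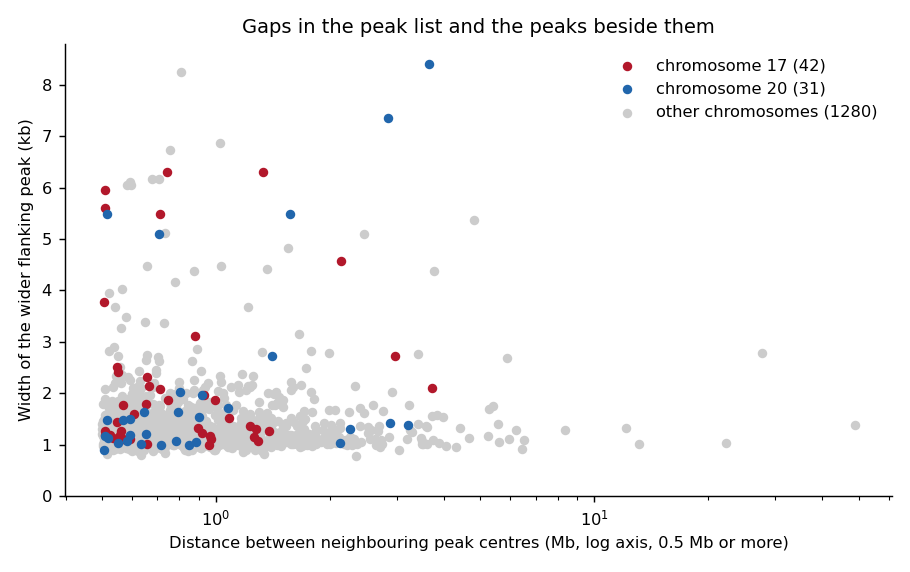
Width in kb of the wider of the 2 peaks beside each gap of 0.5 Mb or more, against the distance between the peak centres in Mb (log axis); points are gaps of chromosomes 17 (red), 20 (blue) and all others (grey). The gaps of 3.67 and 2.86 Mb on chromosome 20 have flanking peaks of 8.41 and 7.34 kb, while most gaps elsewhere are flanked by peaks under 2.5 kb.

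Outside the bands the strongest peaks near genes lay at signalling, transport, keratin and mitochondrial genes. On chromosome 17 CAMKK1, a calcium/calmodulin-dependent kinase kinase, had 3100 at -2206 bp and KRT37, a hair keratin gene, 3100 at 8771 bp. MRPL58 (ICT1 in the table), a mitochondrial ribosome rescue factor, had 2614 at -3298 bp and GALK1, galactokinase, 2183 at -4469 bp. ATP2A3, a calcium pump, had 2033 at 3912 bp, MYO18A 1665 and the guidance cue gene NTN1 1627. A peak of 1471 named for the pseudogene ARGFXP2 lay in an intron of RHOT1, a mitochondrial transport gene, and PRKCA, protein kinase C alpha, had 1241. On chromosome 20 NRSN2 had 3100 at 1349 bp, NDUFAF5 (C20orf7), a complex I assembly factor, 1517 at 282 bp, and MKKS, a chaperonin-like gene, 1335 at -271 bp. The riboflavin transporter gene SLC52A3, the corepressor gene CBFA2T2 and UBOX5 followed with 1136, 998 and 842.

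Of 40 genes of energy metabolism and mitochondria on the 2 chromosomes, 10 had a peak within 10 kb (25%, 12.7 to 41.2), against 11.5% of all protein-coding genes, and 5 within 1 kb (12.5%), against 4.16%. At any distance 11 had one (27.5%), against 29.6%, which is near the background. This list and the nuclear receptor list below were written with earlier results of these data known, so their shares are descriptive only. List members in the amplified bands with no peak named for them included ACACA, MRPL45, TOMM34, PCK1 and POLG2. TACO1 was the only one of the 10 in an amplified band. Besides MRPL58 and NDUFAF5, they included MRPL12 (1203), the acetyl-CoA synthetase gene ACSS1 (769 at 2752 bp), COX10, of heme A synthesis (560 at -7252 bp and 532 at 244 bp), TACO1 (447), IDH3B (151), SLC25A39 (106) and MRPS26 (62.1). ACLY, FASN, ACACA, ACSS2, GSS, PDK2 and PCK1 were among the 29 with no peak named for them. Of 15 nuclear receptor and coregulator genes 4 had a peak within 10 kb (26.7%, 7.79 to 55.1), namely RARA (880), NR1D1 (245), MED9 (141) and MED11 (100). The share of all protein-coding genes, 11.5%, lies inside this interval. At any distance the count was also 4 (26.7%), near the 29.6% of all protein-coding genes. THRA, HNF4A, NCOA3, NCOA5, NCOA6, NCOR1, PELP1, MED1, MED13, MED24 and MED31 had none, and 4 of these 11 (THRA, MED1, MED24, NCOA3) lie in the gaps named above.

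Peaks of both chromosomes lay closer to genes than those of the rest of the list, while a smaller share of their genes had a peak named for them at any distance. Of the 710 peaks 231 were within 10 kb of a TSS (32.5%, 29.1 to 36.1), against 2735 of 14513 elsewhere (18.8%, 18.2 to 19.5). Within 1 kb lay 68 (9.58%, 7.51 to 12), against 849 elsewhere (5.85%) and 6.02% of the whole list. On chromosomes 19 and 22 the shares within 10 kb were 56.2% and 37.5%. Of 1169 protein-coding genes of chromosome 17, 116 had a peak within 10 kb (9.92%, 8.27 to 11.8) and 222 had one at any distance (19%, 16.8 to 21.4), against 11.5% and 29.6% of all protein-coding genes. Of 537 on chromosome 20 the counts were 67 (12.5%) and 135 (25.1%, 21.5 to 29). Intergenic peaks made up 42% of the members, against 52.4% elsewhere, and intronic ones 47.7%, against 41.3%.

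Score and base composition of the members lay within the range of the other chromosomes. The median score was 120 (107 to 138) on chromosome 17 and 109 (96.3 to 128) on chromosome 20, against 106 (104 to 108) on the other chromosomes. Chromosome 17 ranked 6 of 24 by median score, and chromosome 20 ranked 17. The share in the upper 10% by score was 14.1% (10.9 to 17.7), 12% (8.37 to 16.4) and 9.85% (9.37 to 10.3) in the same order. The median GC fraction was 0.457 over the members, against 0.404 elsewhere, and was 0.515 and 0.498 on chromosomes 19 and 22. The median conservation score was 0.09 on chromosome 17 and 0.06 on chromosome 20, against 0.07 elsewhere. Peaks in LINE repeats made up 12.3% of the members and 14.1% of the others, and peaks in SINE repeats 12% and 9.82%.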

How the data were processed

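ChIP-seq libraries of ERRγ (2) and input DNA (1) from BT-474 cells were read as single 50 bp reads. The tools named in the submitters' processing notes are HOMER 3.18, MACS 1.4.1 and BWA 0.5.9, and the build is hg19. The labels and the file header do not state what each did, the calling threshold, duplicate handling or pooling. The authors deposited 1 merged list. Its peak score is a deposited score without a stated unit, and GC content is a deposited fraction; conservation is a deposited score between 0 and 1. Signed distances to the TSS are the authors'.

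Peak centres were binned at 1 Mb, with bands rounded to whole Mb from general knowledge of hg19. Chromosome length was taken as the bins up to the last peak. All 710 members matched a RefSeq gene table (GRCh38.p14), used for symbols, biotypes and gene order only. Gene order between builds can differ at duplicated genes. Genes between gap edges were counted by that order. A gene counted when a peak named for it, as nearest TSS, lay within 10 kb, so genes at shared promoters are missed. Intervals are Poisson, conditional exact, Clopper-Pearson or order-statistic 95% intervals. Named genes were the first 10 by score within 10 kb in each band and the rest of chromosome 17, the first 6 in the rest of chromosome 20, the members of 5 gene lists with a peak, fixed amplicon genes, and the genes nearest the 5 densest bins and 5 largest gaps. Genes of other gaps and bins, of wide stretches, and the strongest distal peaks, were named after their values were seen. Some genes that this rule names are not reported here. Members and lists were chosen with earlier results of these data known. Binning, gap and interval code was tested on simulated data. Python 3.11.15, numpy 2.4.6, pandas 2.3.3, scipy 1.17.1 and matplotlib 3.10.9 were used.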

Additional observations from a re-analysis of the deposited data

How the results depend on the processing

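Of 69 alternative values 48 stayed within the counting interval (or within 1.5 times for counts) and 21 moved. The density ratio of 17q12 was 0.728 with the band 1 Mb wider and 0.611 with it narrower. With the upper 10% of the peaks it was 0.201 (0.00499 to 1.16), where 17q23 and 20q13 had 0.241 (0.00599 to 1.39) and 0.87 (0.369 to 1.9). The ratios of 17q12 and 17q23 there rest on 1 peak in each band, and each interval includes 1. Over bins with a peak the 20q13 ratio was 0.829 (0.618 to 1.1). With the upper 50% of the peaks, the median score was by construction higher, 205 in 17q23 and 210 in 20q13, the densest bin of chromosome 17 held 13 peaks, and 70 and 37 genes of chromosomes 17 and 20 had a peak within 10 kb. At 1 kb these gene counts were 34 (2.91%) and 25 (4.66%), against 4.16% of all protein-coding genes. Of the lists, 0 of 40 genes of 20q13, 2 of 15 nuclear receptor and coregulator genes (13.3%) and 5 of 40 energy genes (12.5%) remained. At 50 kb, 190 (16.3%) and 116 (21.6%) genes of the chromosomes were counted, against 22.6% of all protein-coding genes. The 17q23 list had 5 of 32 (15.6%) and the 20q13 list 10 of 40 (25%), which is near that background. With bins of 2 Mb 9.38% of chromosome 20 bins were empty, and 14.3% with bins shifted by 0.5 Mb. The core AGGTCA was in 20% of the promoter windows, against 0 with TNAAGGTCA. As the 17q12 list had no peak at any distance, none of its alternatives could move, and a region with few peaks tends to move towards 1 over bins with a peak, where 17q12 had 0.58. No paired analysis was possible because the 1 merged list carries no column per library. Depth was not known, so a missing peak may lie under the authors' calling threshold.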
